A study of Mus musculus with 24 samples.

Results

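The genes described here are the transcriptional co-activators *Yap1* and *Wwtr1*, which encode YAP and TAZ, the 4 DNA-binding partners *Tead1* to *Tead4*, and *Vgll4*, which encodes a competitor for the TEAD surface. They were taken by gene symbol after the Ensembl identifiers of the tables were matched to GENCODE M21. All 7 were among the 15667 genes listed for the uninjected hearts and the 15327 listed for the injected hearts, of 16978 genes in the series, and all 7 passed the filter on low values in both tables. RNA came from the hearts of mice at postnatal day 7.5. The labels name the tissue as heart apex, whereas the methods of the study name the ventricles.

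Groups were set by genotype and by vector. Xinβ (*Xirp2*) encodes an actin-binding protein of the intercalated disc. Xinβ KO mice lack it in every cell, since a cassette replaces part of the gene in the germ line of a C57BL6 background, and WT littermates were the controls. Of the 24 libraries, 8 came from uninjected hearts, 4 KO and 4 WT. The other 16 came from hearts injected at postnatal day 1 with AAV9, 4 each of KO/GFP, WT/GFP, KO/YAP and WT/YAP. In both vectors the cardiac troponin T promoter drives the insert, so that cardiomyocytes are the cells meant to express it, and GFP is the control insert. YAP here stands for the human YAP S127A, a form that escapes one inhibitory phosphorylation. Mouse *Yap1* therefore does not measure the transgene, and whether reads of the human sequence aligned to the mouse gene was not tested. By the methods each group holds equal numbers of male and female mice. The title of each sample holds a code with a number, and some numbers are consecutive within a group. The labels do not name the litter of a sample, so p-values measure the spread between these samples.

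The Hippo pathway is a kinase cascade in which MST kinases act on LATS kinases. LATS kinases phosphorylate YAP and TAZ, which are then held by 14-3-3 proteins in the cytoplasm or degraded. YAP and TAZ that reach the nucleus have no DNA-binding domain of their own and act through TEAD proteins, which bind the element GGAATG. In the heart this arrangement is known for its part in cardiomyocyte proliferation before and shortly after birth. The comparisons below ask how the messages of the co-activators and of their partners stood with and without Xinβ, and with and without the active YAP.

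Values are CPM, counts per gene scaled to library size, with library sizes as scaled by the authors. The counts behind them could be recovered. An uninjected library held 20490875 to 31154155 of them and an injected library 15015038 to 19444404. *Xirp2* was between 0.291 and 0.692 CPM in the 4 uninjected KO libraries and between 106 and 168 CPM in WT. In KO/GFP it was between 0.176 and 0.497 CPM, and in WT/GFP between 99.0 and 149 CPM. The labels therefore match the targeted gene. The 6 cardiomyocyte markers on a list that includes *Myh6* and *Tnnt2* summed to between 44568 and 71556 CPM in every library, and none of the listed markers of any cell type had a group mean of 0. In bulk hearts, fewer cells of a type and less RNA per cell cannot be told apart. *Ddx3y*, on the Y chromosome, lay under 1 CPM in 1 KO/GFP, 2 KO/YAP and 1 WT/GFP library. It was at 3.68 CPM in uninjected KO replicate 4, at 8.61 CPM in WT/YAP replicate 3 and above 20 CPM in all others, so that most groups did not show the equal mixture.

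Among the 7 genes, *Tead3* was the one that limma called for genotype and for vector. It was 2.101-fold higher in KO/GFP than in WT/GFP hearts (39.7 ± 4.85 against 18.9 ± 2.26 CPM, SD, n = 4 each) and fell to 23.1 ± 2.60 CPM in KO/YAP. TEAD3 is a member of the family that is known from the placenta and from muscle. *Tead3* (ENSMUSG00000002249) spans 28331671 to 28350817 of chromosome 17 in GRCm38 (minus strand), and no exon of another annotated gene overlaps its exons. The RefSeq table of promoters, which spans 250 bases before to 50 after a start, gave windows for 5 of the 7 genes and has 3 for *Tead3*. The element GGAATG, or CATTCC when read on the other strand, was searched in each. Of 32851 such windows over all genes, 14.7% hold it, and of the genes with a window 16.6% hold it in at least 1. *Tead3* is shown as the gene that moved, and *Yap1* and *Wwtr1* as its co-activators. The capitals mark the element, which is a match of letters and no evidence of binding. The sequences run 5′ to 3′ on the strand of the gene, in GRCm38.p6, from chr17:28350551-28350850 for *Tead3*, chr9:8004547-8004846 for *Yap1* and chr3:57575861-57576160 for *Wwtr1*.

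Tead3: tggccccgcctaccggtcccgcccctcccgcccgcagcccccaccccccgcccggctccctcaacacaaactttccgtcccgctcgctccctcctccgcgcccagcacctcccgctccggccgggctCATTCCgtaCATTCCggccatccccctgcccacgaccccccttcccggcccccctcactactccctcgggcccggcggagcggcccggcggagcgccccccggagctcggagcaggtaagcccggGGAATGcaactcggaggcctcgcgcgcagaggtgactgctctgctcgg

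Yap1: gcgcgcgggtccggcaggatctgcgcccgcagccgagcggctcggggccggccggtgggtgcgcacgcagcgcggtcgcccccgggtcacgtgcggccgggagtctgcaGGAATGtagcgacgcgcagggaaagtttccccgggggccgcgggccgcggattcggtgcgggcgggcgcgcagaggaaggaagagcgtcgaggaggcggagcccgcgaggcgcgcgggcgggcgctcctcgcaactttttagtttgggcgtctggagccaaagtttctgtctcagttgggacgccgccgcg

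Wwtr1: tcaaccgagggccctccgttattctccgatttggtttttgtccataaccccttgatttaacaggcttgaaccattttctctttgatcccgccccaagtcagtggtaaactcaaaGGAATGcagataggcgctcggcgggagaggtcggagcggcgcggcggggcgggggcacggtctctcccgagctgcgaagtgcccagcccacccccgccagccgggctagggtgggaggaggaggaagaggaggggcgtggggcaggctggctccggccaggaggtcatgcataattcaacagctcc

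In this window *Tead3* holds the element 3 times, as CATTCC beginning 123 and 114 bases before the start and as GGAATG beginning at the 2nd base after it. Another of its windows, with a start further upstream, holds GGAATG once, and the third window does not hold it. *Yap1* has it 141 bases before the start and *Wwtr1* 136 bases before. *Vgll4* holds it once, at 82 bases before, and the window of *Tead2* does not hold it. *Tead1* and *Tead4* have no entry in the table.

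In WT/GFP hearts *Tead3* was at 19.8, 15.7, 20.9 and 19.2 CPM in replicates 1 to 4. In KO/GFP it was at 42.0, 38.5, 33.5 and 44.8 CPM. The lowest KO/GFP library thus lay above the highest WT/GFP library, and over the 16 injected libraries the gene had 281 to 813 counts. On the log2 scale the difference was 1.03 with a standard error of 0.14 (adjusted p = 1.9e-04, limma, adjusted over 14597 genes by Benjamini-Hochberg), and it ranked 67 among the tested genes by p-value. In this comparison 13.7% of tested genes were called at an adjusted p under 0.05, 6.43% higher and 7.22% lower in KO/GFP, and 1 of the 7 genes was called. Across the 18 alternative fits the log2 fold change of *Tead3* stayed between 0.92 and 1.11, with an adjusted p of at most 0.0035.

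With active YAP in the KO heart, *Tead3* was at 20.1, 22.1, 26.2 and 23.9 CPM. These 4 libraries lay below those of KO/GFP without overlap. Against KO/GFP the log2 fold change was -0.75 (standard error 0.14, adjusted p = 0.0018, limma), and 14.8% of tested genes were called in this comparison, 7.85% higher and 6.92% lower. *Tead3* was again the 1 of the 7 that was called. Both comparisons share the KO/GFP libraries, so they are not independent of each other.

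In WT hearts the difference in *Tead3* with the vector ran the other way. WT/YAP libraries were at 20.6, 25.8, 26.2 and 32.2 CPM, of which the lowest fell within the range of WT/GFP. A log2 fold change of 0.44 did not pass (unadjusted p = 0.0047, adjusted p = 0.64, limma). In this comparison 0% of all tested genes were called by limma, with 1011 at an unadjusted p under 0.05, and edgeR called 0 and DESeq2 11. None of the 7 genes was called by any of the 3 tools, with *Tead3* and *Tead2* at an unadjusted p under 0.05 in limma, beside 6.93% of all tested genes. The difference between the effects of the vector in KO and in WT hearts was itself tested as an interaction and came to -1.20 (standard error 0.19, adjusted p = 0.0019, limma), where 7.56% of tested genes were called and 1 of the 7 genes. KO/YAP and WT/YAP libraries overlapped (log2 fold change -0.17, 95% interval -0.45 to 0.12), and so did KO/YAP and WT/GFP (0.28, interval -0.01 to 0.57).

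The uninjected hearts leaned the same way as the GFP hearts without passing the test. *Tead3* was at 27.4, 47.8, 42.3 and 36.5 CPM in KO and at 28.4, 28.1, 25.9 and 31.2 CPM in WT. KO replicate 1 lay within the WT range, and the other KO libraries lay above it. On the log2 scale KO was higher by 0.40 ± 0.16 (standard error), with an adjusted p of 0.19 in limma. Without KO replicate 1 it was 0.55 with an adjusted p of 0.019. In the uninjected comparison 6.69% of tested genes were called, 3.23% higher and 3.46% lower in KO, and 0 of the 7 genes were. In limma 4 of the 7 had an unadjusted p under 0.05, beside 22.5% of all tested genes. On the recovered counts edgeR and DESeq2 called 1 of the 7 each, beside 6.13% and 12.5% of all tested genes.

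**Figure D1:**
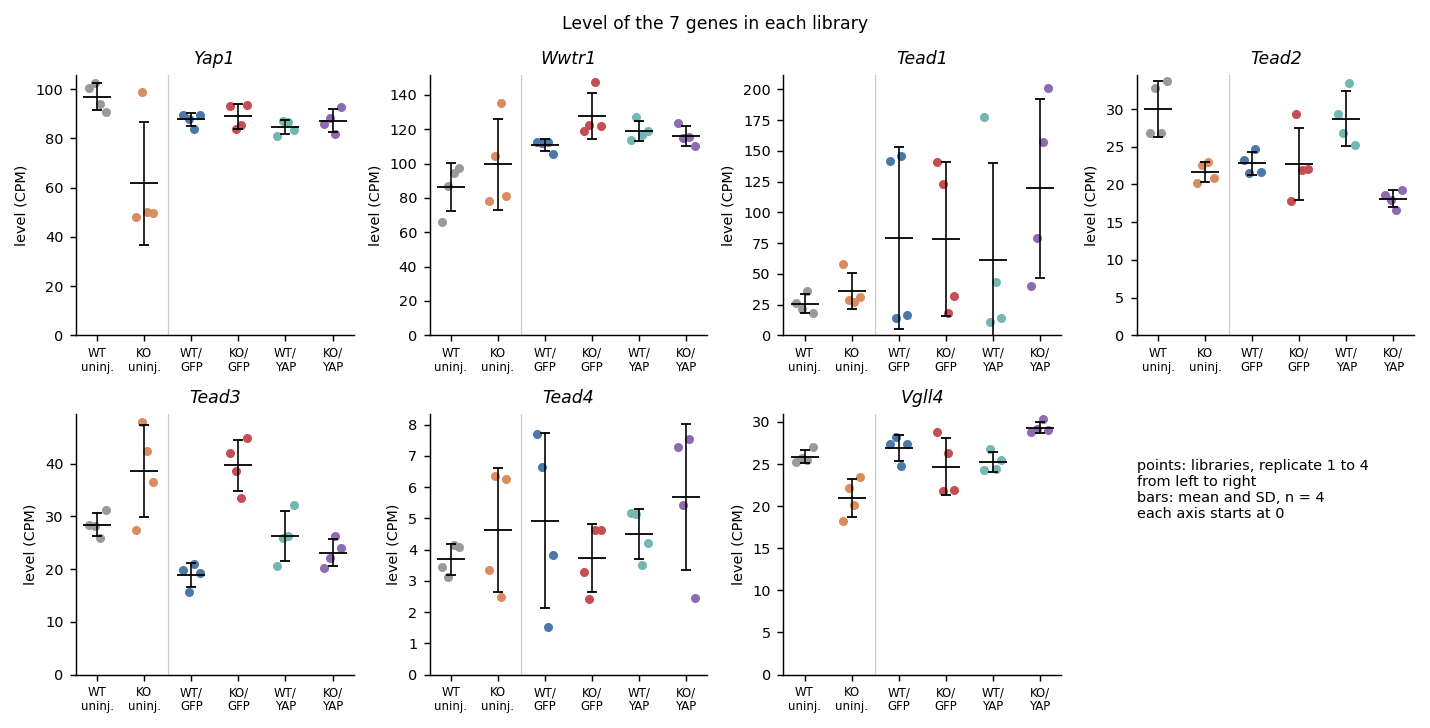
Level in CPM (vertical axes, each starting at 0) of the 7 genes in the 24 libraries, by group on the horizontal axis, with the mean and SD of 4 libraries as bars, cut at 0 where they pass below it. *Tead3* stands at 33.5 to 44.8 CPM in KO/GFP and at 15.7 to 20.9 CPM in WT/GFP, and *Tead1* spans 10.5 to 201 CPM among the injected hearts.

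The summed markers of fibroblasts, macrophages, endothelial, mural, erythroid and epicardial cells were each lower in KO/GFP than in WT/GFP without overlap, where *Tead3* was higher, and the cardiomyocyte sums of the groups overlapped. High genes weigh most in a sum, and not all markers fell. In limma 5 of 6 macrophage, 4 of 6 erythroid and 3 of 6 endothelial markers were called lower. So were 1 of 6 mural and 1 of 5 epicardial markers, beside 7.22% of all tested genes. Positive log2 fold changes stood in 1 endothelial (*Emcn*), 1 mural and 1 epicardial marker (*Krt19*). Epicardial *Aldh1a2* went from a mean of 59.3 CPM in WT/GFP to 30.1 in KO/GFP, and *Wt1* from 11.9 to 11.8. The 6 fibroblast markers summed to between 1004 and 1581 CPM in KO/GFP and to between 1916 and 2291 CPM in WT/GFP, and to between 2042 and 2443 CPM in KO/YAP. Of these 6, 4 were called lower in KO/GFP than in WT/GFP, beside 7.22% of all tested genes, and 4 higher in KO/YAP than in KO/GFP, beside 7.85%. The 6 macrophage markers summed to between 27.0 and 65.5 CPM in KO/GFP, 73.4 and 107 CPM in WT/GFP and 76.7 and 91.3 CPM in KO/YAP. Of the 6 cardiomyocyte markers, *Tnnt2* was the 1 called higher in KO/GFP (log2 fold change 0.65, adjusted p = 0.0013, limma), beside 6.43% of all tested genes. It was also the 1 called lower in KO/YAP than in KO/GFP (-0.62, adjusted p = 0.0017, limma), beside 6.92%. Between KO/GFP and WT/GFP 4 of the 6 had a positive and 2 a negative log2 fold change, with a median of 0.08. The list summed to between 53457 and 62961 CPM in KO/GFP and between 45240 and 58559 CPM in WT/GFP. The 6 endothelial markers summed to between 1175 and 1230 CPM in KO/GFP and between 1350 and 1503 CPM in WT/GFP. For mural markers the sums ran from 981 to 1079 CPM in KO/GFP and from 1128 to 1351 CPM in WT/GFP. Erythroid sums were 943 to 2293 CPM in KO/GFP and 2536 to 6484 CPM in WT/GFP, and the 5 listed epicardial markers summed to 27.9 to 64.6 and 74.3 to 85.7 CPM. In KO/YAP the sums were 1371 to 1411 CPM for endothelial, 1128 to 1273 CPM for mural and 69.8 to 77.5 CPM for epicardial markers. Erythroid markers stayed low in KO/YAP, at 1412 to 1567 CPM. Against KO/GFP 0 of 6 were called in limma, edgeR or DESeq2, beside 14.8%, 14.4% and 17.9% of all tested genes. At an unadjusted p under 0.05 in limma there were 0, beside 29.6%. Endothelial and epicardial markers differed in both directions between KO/YAP and KO/GFP, where 7.85% of all tested genes were called higher and 6.92% lower. Of the 6 endothelial markers, *Kdr* (0.40, adjusted p = 0.0026, limma) and *Cdh5* (0.26, adjusted p = 0.044) were called higher and *Emcn* (-0.45, adjusted p = 0.036) lower. The 3 calls became 1 without KO/GFP replicate 1 or KO/YAP replicate 1 or 2, beside 10.1%, 10.2% and 10.6% of all tested genes. Of the 5 epicardial markers, *Aldh1a2* (0.95, adjusted p = 0.0032, limma) was called higher and *Krt19* (-0.82, adjusted p = 0.041) lower. The 2 calls became 1 without KO/GFP replicate 1, 2 or 4 or any 1 of the KO/YAP libraries, beside 10.1% to 17.1% of all tested genes. In uninjected hearts the fibroblast sums were 1181 to 1774 CPM in KO and 2165 to 2287 CPM in WT, and the macrophage sums 23.2 to 40.3 and 61.9 to 73.8 CPM. Endothelial sums were 1046 to 1347 CPM in KO and 1461 to 1604 CPM in WT, and those of the 3 listed epicardial markers 35.02 to 47.9 and 58.7 to 64.9 CPM, again without overlap. In limma 1 of 6 endothelial and 1 of 3 epicardial markers were called lower there, beside 3.46% of all tested genes. The epicardial 1 was *Aldh1a2* (-1.11, adjusted p = 0.014, limma). *Wt1* (0.56, adjusted p = 0.089) and *Krt19* (0.88, adjusted p = 0.14) were higher in KO without being called. Mural sums overlapped, at 960.3 to 1299 and 1142 to 1235 CPM, as did those of the 5 listed erythroid markers, at 1712 to 2845 and 2215 to 3286 CPM, and of the cardiomyocyte markers, at 56821 to 71556 and 50944 to 57964 CPM. The part of these shifts in the levels of the 7 genes was not tested.

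**Figure D2:**
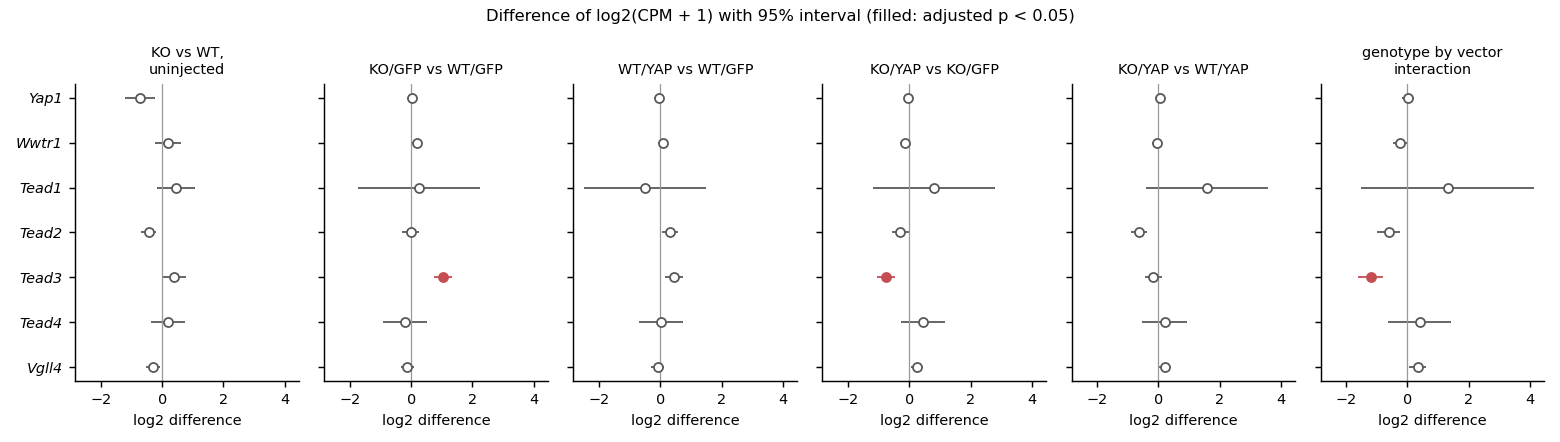
Difference of log2(CPM + 1) (horizontal axis) with its 95% interval for each of the 7 genes (rows) in 6 comparisons (panels), where filled points passed an adjusted p of 0.05 in limma. *Tead3* is filled at 1.03, -0.75 and -1.20, and the intervals of *Tead1* are the widest in the injected panels.

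*Yap1* encodes YAP itself. Its position in GRCm38 is chromosome 9, 7931999 to 8004596, minus strand, where the annotated gene Gm20416 overlaps it on the other strand. In the 16 injected hearts its level varied little, from 80.9 to 93.6 CPM. The group means were 87.7 ± 2.76 CPM in WT/GFP, 89.0 ± 5.07 in KO/GFP, 84.5 ± 2.84 in WT/YAP and 87.2 ± 4.58 in KO/YAP (SD, n = 4). The log2 difference between KO/GFP and WT/GFP was 0.02, with a 95% interval of -0.12 to 0.17. Between WT/YAP and WT/GFP it was -0.05, with an interval of -0.20 to 0.09, and between KO/YAP and KO/GFP it was -0.03, with an interval of -0.17 to 0.12. The pooled SD within groups on the log2 scale was 0.06, and 14561 of 14597 tested genes had one at least as large.

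In uninjected hearts *Yap1* did not hold to one level. KO libraries were at 47.9, 99.0, 50.1 and 49.7 CPM and WT libraries at 100.3, 102.6, 93.8 and 90.7 CPM. Replicate 2 of the KO group lay among the WT libraries, and the other KO libraries lay far below them, on 986 to 1055 counts. On the log2 scale the difference was -0.71 ± 0.22 (standard error), with an adjusted p of 0.086 in limma. It was -0.96 without KO replicate 2 (adjusted p = 0.0040). On plain CPM, with each column rescaled to the same sum, the log2 fold change was -0.85 (adjusted p = 0.046), a scaling that shifts the median of all tested genes by -0.12. Over these 8 libraries the genes that followed *Yap1* most closely were *Ankdd1b* (Pearson r = 0.98), *Mex3d* (0.97) and *Ipmk* (0.97), on log2(CPM + 1). Over the 16 injected libraries they were *Serpinb9* (0.83), *Lrp5* (0.82) and *Ctsf* (0.81). The 2 sets of hearts were sequenced in separate runs with different read lengths, so their levels are not compared.

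*Wwtr1* encodes TAZ, the close relative of YAP, and is annotated on the minus strand of chromosome 3, 57455649 to 57575910. Levels in the injected hearts ran from 105 to 148 CPM. In WT/GFP they were 113, 112, 113 and 105 CPM and in KO/GFP 119, 123, 148 and 122 CPM, groups that did not overlap. It came to 0.20 on the log2 scale (standard error 0.08, adjusted p = 0.0995, limma), short of the threshold, and KO/GFP replicate 3 was the highest of the 16. WT/YAP libraries, at 114, 127, 116 and 119 CPM, also lay above those of WT/GFP. The group means were 119 ± 5.73 CPM in WT/YAP and 116 ± 5.62 CPM in KO/YAP. Uninjected hearts spread more, from 78.1 to 135 CPM in KO and 66.2 to 97.2 CPM in WT (log2 fold change 0.19, 95% interval -0.25 to 0.62). *Socs3* (r = 0.84), *Gm14327* (0.83) and *Tbk1* (0.81) followed it most closely over the injected libraries.

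*Tead1*, often the chief TEAD of heart muscle, was the least steady of the 7 genes. It spans 112679318 to 112906807 of chromosome 7 (plus strand) and has 15 annotated transcripts. WT/GFP libraries were at 142, 14.0, 146 and 16.4 CPM. KO/GFP libraries were at 141, 123, 18.3 and 31.8 CPM. Each of these groups thus held libraries near the top and near the bottom of the whole range. WT/YAP libraries were at 178, 10.5, 43.2 and 13.7 CPM. In KO/YAP they were at 40.4, 79.0, 157 and 201 CPM. Over the 16 libraries the highest was 19.2 times the lowest, 7 libraries were over 100 CPM and 8 under 50 CPM. The counts behind these values were 174 to 3518, so counting error is small beside the spread.

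The pooled SD of *Tead1* within groups was 1.56 on the log2 scale, and only 18 of the 14597 tested genes, itself included, had one as large. Among the 3164 genes with a mean level within 2-fold of its own, 3 did, with a median SD of 0.16. Its log2 fold changes therefore carry standard errors of 0.94, and the 95% interval between KO/GFP and WT/GFP ran from -1.74 to 2.26. In uninjected hearts the spread was smaller, from 27.0 to 58.0 CPM in KO and from 18.5 to 36.1 CPM in WT (log2 fold change 0.46, adjusted p = 0.38, limma), and 1532 of 15598 tested genes had a pooled SD at least as large as its 0.45. Genes most like it over the injected libraries were *Fam120b* (r = 0.76), *Gm12439* (0.74) and *Rbm42* (0.73). What sets these levels apart between hearts of one group was not tested.

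**Figure D3:**
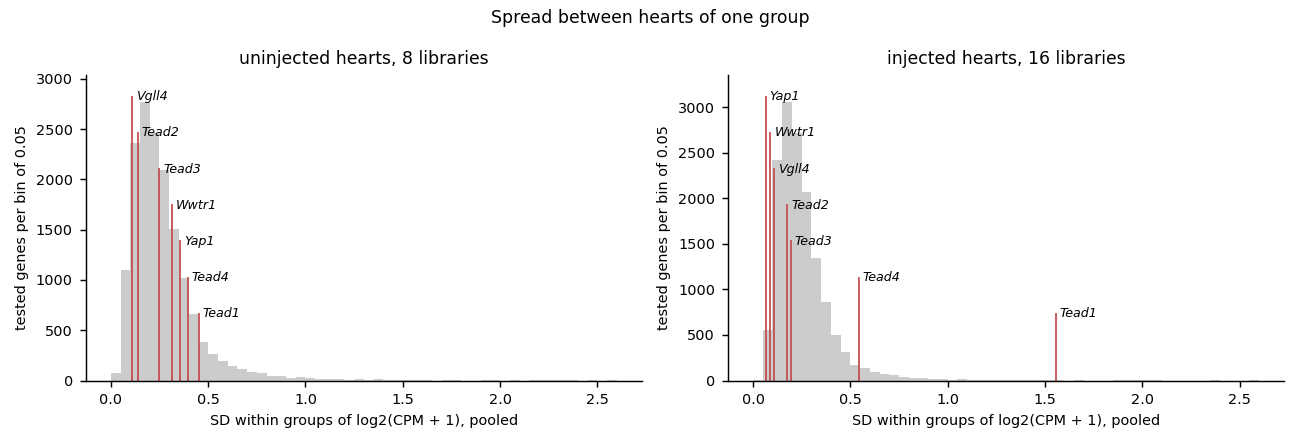
Number of tested genes (vertical axis) by the pooled SD within groups of log2(CPM + 1) (horizontal axis, in bins of 0.05), for the uninjected hearts on the left and the injected hearts on the right, with lines for the 7 genes. In the injected hearts *Yap1* stands at 0.06, near the low end, and *Tead1* at 1.56, far beyond most genes.

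*Tead2* is best known from embryonic tissue. It spans 45215753 to 45233644 of chromosome 7 (plus strand) and overlaps *Cd37* on the other strand, whose group means were between 0.926 and 2.54 CPM. Uninjected KO libraries were at 20.2, 22.6, 23.0 and 20.9 CPM and WT libraries at 26.9, 32.8, 26.8 and 33.7 CPM. All 4 KO libraries lay below the WT libraries. At -0.45 on the log2 scale, with a standard error of 0.11, the difference missed the threshold (adjusted p = 0.051, limma), while edgeR (adjusted p = 0.049) and DESeq2 (adjusted p = 0.0049) on the recovered counts put it past, as did leaving out KO replicate 1 (-0.41, adjusted p = 0.047).

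In the GFP hearts the genotypes overlapped in *Tead2*. Libraries were at 17.8, 29.3, 21.9 and 22.1 CPM in KO/GFP and at 23.2, 21.6, 24.7 and 21.7 CPM in WT/GFP, with a log2 difference of -0.02 and a 95% interval of -0.29 to 0.25. With active YAP the genotypes stood apart, at 18.5, 17.9, 16.6 and 19.3 CPM in KO/YAP and 29.4, 26.8, 33.5 and 25.2 CPM in WT/YAP. The highest KO/YAP library lay below the lowest WT/YAP library. This was a log2 fold change of -0.63 (standard error 0.13, unadjusted p = 1.4e-04, adjusted p = 0.135, limma). In KO/YAP against WT/YAP limma and edgeR each called 0.0411% of tested genes and none of the 7 genes. In limma *Tead2* and *Vgll4* had an unadjusted p under 0.05, beside 11.1% of all tested genes. DESeq2 called *Tead2*, beside 0.459% of all tested genes. The interaction for *Tead2* was -0.61 (standard error 0.18, adjusted p = 0.0504, limma), and edgeR (adjusted p = 0.042) and DESeq2 (adjusted p = 0.014) called it. Without KO/GFP replicate 1 it was -0.72 with an adjusted p of 0.029. *Zfp772* (r = 0.87), *Tubgcp3* (0.85) and *Cspp1* (0.85) had the patterns most like it.

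In KO/YAP against WT/GFP, limma and edgeR each called 0.0206% of tested genes and DESeq2 0.164%, and 0 of the 7 genes were among them. *Tead2* alone of the 7 had an unadjusted p under 0.05 in limma, beside 6.08% of all tested genes. Its log2 difference there was -0.32, with a 95% interval of -0.59 to -0.05, and the groups did not overlap.

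*Tead4*, which is known from the early embryo and from muscle precursors, was the lowest of the family. It spans 128224288 to 128300823 of chromosome 6 (minus strand). Levels ran from 1.52 to 7.71 CPM over the injected libraries and from 2.50 to 6.36 CPM over the uninjected ones, on 28 to 193 counts a library. The groups overlapped in each of the 6 pairs compared. The log2 difference between KO/GFP and WT/GFP was -0.20, with a 95% interval of -0.93 to 0.52, and its pooled SD within groups in the injected hearts was 0.54. *Gm20548* (r = 0.78), *4930578C19Rik* (0.76) and *Gm5451* (0.76) were the genes most like it.

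*Vgll4* encodes a protein that binds TEADs through the surface that YAP uses and so opposes YAP. It spans 114860628 to 114969994 of the same chromosome and strand. Uninjected KO libraries were at 18.3, 22.1, 20.1 and 23.4 CPM, all below the WT libraries at 25.3, 25.7, 25.5 and 27.1 CPM. The log2 fold change was -0.30 (standard error 0.11, adjusted p = 0.13, limma), and on plain CPM it was -0.43 (adjusted p = 0.044). KO/YAP libraries were at 28.8, 29.2, 30.4 and 29.1 CPM, above the WT/YAP libraries at 24.3, 26.8, 24.4 and 25.5 CPM and above those of WT/GFP at 27.4, 28.2, 24.7 and 27.3 CPM. KO/GFP was wider, at 28.8, 21.8, 26.3 and 21.9 CPM. Between KO/YAP and KO/GFP the log2 fold change was 0.25 (standard error 0.10, adjusted p = 0.092, limma), and without KO/GFP replicate 1 it was 0.32 with an adjusted p of 0.042. *Diaph1* (r = 0.84), *Prkcq* (0.82) and *Rab35* (0.82) were most like *Vgll4* over the injected libraries.

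The genes most like *Tead3* over the injected hearts were *Inhbb* (r = 0.93), which encodes a subunit of activin and inhibin, *Gigyf1* (0.93) and *Tns2* (0.93), which encodes a focal adhesion protein. *Inhbb* was at 11.6, 7.13, 9.54 and 15.1 CPM in KO/GFP and at 1.91, 1.39, 1.47 and 1.42 CPM in WT/GFP. In KO/YAP it was at 2.93, 4.44, 3.43 and 3.09 CPM. These correlations are descriptions over libraries that share groups, with no test.

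Levels of different genes can be set beside each other only per length, here as CPM per kb of the union of annotated exons. In WT/GFP *Wwtr1* came first at 23.2 ± 0.75 CPM per kb, followed by *Yap1* at 9.47 ± 0.30 (SD, n = 4). *Tead1* at 5.85 ± 5.46, *Vgll4* at 4.99 ± 0.28 and *Tead2* at 4.76 ± 0.31 came next, and their libraries overlapped in rank order. *Tead3* at 2.81 ± 0.34 and *Tead4* at 1.37 ± 0.78 were last. In KO/GFP *Tead3* stood in the third place, at 5.91 ± 0.72 CPM per kb, ahead of *Tead1* at 5.80 ± 4.61, *Tead2* at 4.76 ± 1.00 and *Vgll4* at 4.58 ± 0.63, with ranges that overlapped from *Tead3* down to *Vgll4*. In KO/YAP it was sixth at 3.44 ± 0.39, and it overlapped *Tead2* at 3.78 ± 0.24. *Wwtr1* was first, *Yap1* second and *Tead4* last in each of the 6 groups, by exon union as by the longest transcript. By exon union the *Yap1* and *Wwtr1* libraries did not overlap in any group. By the longest transcript they overlapped in both uninjected groups, and in uninjected WT the means of *Wwtr1* and *Yap1* were level, at 18.35 and 18.34 CPM per kb. Between *Yap1* and the next gene there was overlap in uninjected KO, WT/GFP and KO/YAP, and none in the other 3 groups.

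**Figure D4:**
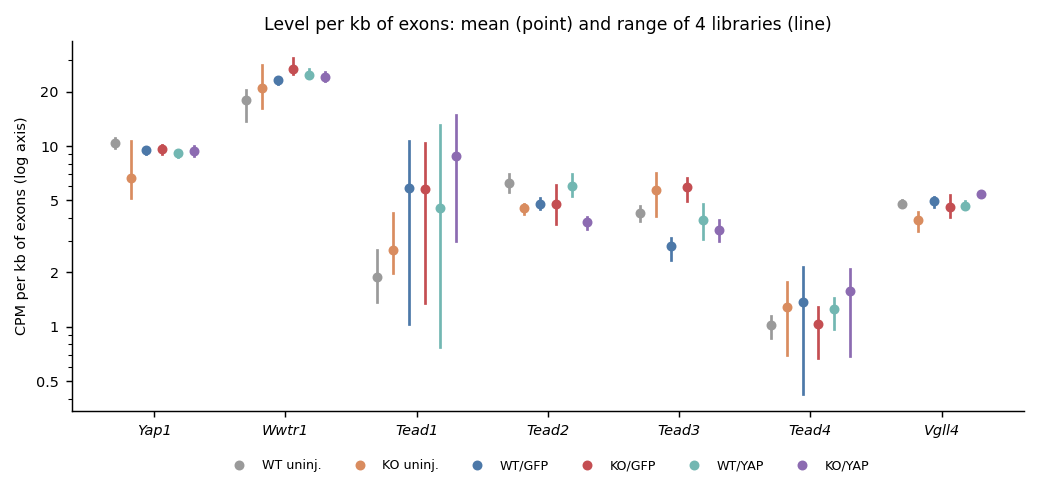
Level per kb of exons (vertical axis, CPM per kb, log scale) of the 7 genes in the 6 groups, with the mean as a point and the range of 4 libraries as a line. *Wwtr1* is highest in every group, at 23.2 CPM per kb in WT/GFP, and *Tead3* stands at 2.81 in WT/GFP and 5.91 in KO/GFP.

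Upstream of YAP stand the Hippo kinases and their adaptors. Of 17 tested genes, 1 was lower in KO/GFP than in WT/GFP, beside 7.22% of all tested genes, the kinase *Taok2* (log2 fold change -0.24, adjusted p = 0.049, limma), and its call held in 5 of 18 alternatives. The median log2 fold change of the list was -0.07, beside -0.01 over all tested genes. In KO/YAP against KO/GFP 1 of 17 was higher, beside 7.85% of all tested genes, *Stk38l*, a relative of the LATS kinases (0.37, adjusted p = 0.035), in 9 of 18 alternatives. For this list and comparison plain CPM called 7 genes, beside 18.8% of all tested genes, and DESeq2 3, beside 17.9%. Leaving out 1 library gave 0 to 2, beside 10.1% to 17.1% of all tested genes. It gave 0 without KO/GFP replicate 1 or KO/YAP replicate 1 or 2, and 2 without KO/GFP replicate 4 or KO/YAP replicate 3. The median there was 0.22, beside 0.01 over all tested genes. *Taok3* was the 1 gene of the 17 called for the interaction, beside 7.56% of all tested genes (0.85, adjusted p = 0.038), and its call held in 14 of 25 alternatives. Plain CPM called 2 of the 17, beside 8.42%. The 1 call became 2 without KO/GFP replicate 4 and 0 without WT/GFP replicate 1, 2 or 4, KO/GFP replicate 3, WT/YAP replicate 2, 3 or 4, or KO/YAP replicate 1, 2 or 3, where leaving out 1 library gave 4.32% to 10.1% of all tested genes called. In uninjected hearts 0 of 17 were called in limma or edgeR and 1 in DESeq2, beside 6.69%, 6.13% and 12.5% of all tested genes. At an unadjusted p under 0.05 in limma there were 3 of the 17, beside 22.5% of all tested genes.

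Among 11 genes of YAP retention and turnover, 3 genes of 14-3-3 proteins fell in KO/GFP and 1 other gene rose, beside 7.22% lower and 6.43% higher over all tested genes. The median of the list was -0.18, beside -0.01. The 4 calls, beside 13.7% of all tested genes, became 1 without KO/GFP replicate 1 or 4, beside 8.65% each. They became 2 without any 1 of the WT/GFP libraries, beside 9.58% to 11.9%. *Ywhaq* was at 67.7, 78.7, 89.3 and 70.1 CPM in KO/GFP and at 107, 109.8, 96.3 and 105 CPM in WT/GFP. Its log2 fold change was -0.45 (adjusted p = 0.0039, limma). *Ywhah* changed by -0.39 (adjusted p = 0.019) and *Ywhag* by -0.30 (adjusted p = 0.046), a call that *Ywhag* kept in 7 of 18 alternatives. *Csnk1e*, a casein kinase that takes part in YAP degradation, was higher in KO/GFP (0.37, adjusted p = 0.033), a call held in 10 of 18 alternatives. In KO/YAP against KO/GFP 4 of the 11 rose, beside 7.85% of all tested genes, *Ywhag* by 0.43 (adjusted p = 0.0064), *Ywhaq* by 0.40 (adjusted p = 0.0081), *Ywhah* by 0.34 (adjusted p = 0.037) and *Ywhaz* by 0.26 (adjusted p = 0.047). The median was 0.24, beside 0.01 over all tested genes. *Ywhaq* and *Ywhag* were called there in each of 18 alternatives. The 4 calls became 2 without KO/GFP replicate 1 or 4 or any 1 of the KO/YAP libraries, beside 10.1% to 11.9% of all tested genes. For the interaction *Ywhag* (0.66, adjusted p = 0.0086) and *Csnk1e* (-0.58, adjusted p = 0.035) were called, beside 7.56% of all tested genes, *Ywhag* in each of 25 alternatives and *Csnk1e* in 15. The 2 calls became 3 without KO/GFP replicate 2 or 3, beside 10.1% and 8.87% of all tested genes. They became 1 without WT/GFP replicate 1, 2 or 4, KO/GFP replicate 4, WT/YAP replicate 2, 3 or 4, or KO/YAP replicate 1 or 2. In those fits 4.32% to 5.73% were called. In uninjected hearts 0 of the 11 were called in limma, edgeR or DESeq2, beside 6.69% of all tested genes in limma. At an unadjusted p under 0.05 there was 1, beside 22.5% of all tested genes, *Ywhaq* at -0.35 (adjusted p = 0.11, limma). *Ywhah* was there at -0.25, *Ywhag* at -0.10 and *Csnk1e* at 0.14, with adjusted p-values of 0.23, 0.57 and 0.42. 14-3-3 proteins bind many partners besides YAP.

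Of 9 tested genes for other binding cofactors, *Amotl1* (0.54, adjusted p = 0.033, limma) and *Amotl2* (0.45, adjusted p = 0.031) were higher in KO/GFP, beside 6.43% of all tested genes. They encode motins, junction proteins that hold YAP, and were called in 12 and 11 of 18 alternatives. The median of the list was 0.24, beside -0.01 over all tested genes. On plain CPM 0 of the 9 were called, beside 16.1% of all tested genes. Without WT/GFP replicate 1 or KO/GFP replicate 1 or 4 it was also 0, beside 9.87%, 8.65% and 8.65%. Without WT/GFP replicate 2, 3 or 4 there was 1 call, beside 9.58%, 11.9% and 10.7%. In KO/YAP against KO/GFP 0 of 9 were called in limma, beside 14.8% of all tested genes, and 1 each in edgeR and DESeq2, beside 14.4% and 17.9%. At an unadjusted p under 0.05 in limma there was 1, beside 29.6%. In uninjected hearts 0 of 9 were called in limma or edgeR and 1 in DESeq2, beside 6.69%, 6.13% and 12.5% of all tested genes. At an unadjusted p under 0.05 in limma there was 1, beside 22.5%. *Amotl1* was there at 0.31 (adjusted p = 0.50) and *Amotl2* at 0.37 (adjusted p = 0.35).

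Genes commonly used as targets of YAP and TEAD did not move in one direction. Of 21 tested, 4 were higher and 2 lower in KO/GFP than in WT/GFP, beside 6.43% and 7.22% over all tested genes. The 6 calls stand beside 13.7% of all tested genes. They became 3 without WT/GFP replicate 2 or 4 or KO/GFP replicate 4, beside 9.58%, 10.7% and 8.65%, and 4 on plain CPM, beside 16.1%. *Igfbp3*, which binds insulin-like growth factors, was at 142, 29.6, 47.2 and 189.8 CPM in KO/GFP and at 28.0, 18.5, 26.0 and 20.7 CPM in WT/GFP (log2 fold change 1.73, adjusted p = 0.0097, limma). All KO/GFP libraries lay above WT/GFP, 2 of them far above. *Nt5e*, an ectonucleotidase, rose by 1.09 (adjusted p = 0.0032), and *Ccn2*, a matricellular protein and a classical YAP target, by 0.83 (adjusted p = 0.030). *Nt5e* was called in each of 18 alternatives and *Ccn2* in 12. *Amotl2*, which also stands on the list of cofactors, was the other that rose. *Axl*, a receptor tyrosine kinase, was at 84.2, 60.0, 79.1 and 87.9 CPM in KO/GFP and at 109.8, 105, 115 and 116 CPM in WT/GFP (-0.53, adjusted p = 0.0023). *Tgfb2* was the other gene that was lower (-0.34, adjusted p = 0.038). The median over the 21 genes was -0.08, beside -0.01 over all tested genes.

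With active YAP in KO hearts, *Axl* rose by 0.61 (adjusted p = 7.3e-04, limma) and *Tgfb2* by 0.65 (adjusted p = 8.0e-04), whereas *Igfbp3* changed by -1.63 (adjusted p = 0.013) and *Nt5e* by -0.74 (adjusted p = 0.029). The median of the 21 genes was 0.20, beside 0.01 over all tested genes. These 4 calls stand beside 14.8% over all tested genes, and plain CPM called 9 of the 21, beside 18.8%. *Ccn2* in KO/YAP was at 95.8, 76.8, 205 and 167 CPM and was not called. *Ankrd1*, another classical target, was between 515 and 604 CPM in KO/GFP, between 546 and 630.3 CPM in WT/GFP and between 484 and 1290.8 CPM in KO/YAP, and was not called in these comparisons. In WT/YAP it was between 728 and 969 CPM, above WT/GFP without overlap (0.57, unadjusted p = 0.022, adjusted p = 0.70, limma). In uninjected KO it was at 264, 457, 112 and 864 CPM and in WT at 884, 834, 1294 and 1083 CPM, which overlapped by 1 KO library (-1.61, unadjusted p = 0.013, adjusted p = 0.10, limma). For the interaction *Axl* (0.73, adjusted p = 0.0058), *Igfbp3* (-1.95, adjusted p = 0.048) and *Nt5e* (-1.13, adjusted p = 0.035) passed, of which *Axl* held in each of 25 alternatives, *Nt5e* in 13 and *Igfbp3* in 8. The 3 calls, beside 7.56% of all tested genes, became 1 with plain CPM, beside 8.42%. They also became 1 without WT/GFP replicate 1, 2 or 3, KO/GFP replicate 1 or 4, WT/YAP replicate 2 or 4, or KO/YAP replicate 2. In those fits 4.32% to 6.68% of all tested genes were called. In uninjected hearts *Igfbp3* alone of the 21 was called by limma (1.55, adjusted p = 0.012), beside 6.69% of all tested genes, and 7 of the 21, 5 of them lower in KO, had an unadjusted p under 0.05, beside 22.5% of all tested genes. Without uninjected KO replicate 4 limma called 4 targets, 2 retention genes and 1 kinase gene there, beside 13.5% of all tested genes, and without KO replicate 1 it called 2 targets and 1 cofactor, beside 11.3%.

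In the remaining comparisons, WT/YAP against WT/GFP, KO/YAP against WT/GFP and KO/YAP against WT/YAP, limma and edgeR called 0 genes of the 4 lists. At an unadjusted p under 0.05 in limma the target list gave 4, 3 and 1 genes in that order. DESeq2 called 1 target in KO/YAP against WT/GFP, beside 0.164% of all tested genes. The cofactor list gave 0 genes at the unadjusted threshold in limma in each of the 3 comparisons. The retention list gave 3, 0 and 3 genes and the kinase list 1, 2 and 4. Over all tested genes the shares at that threshold were 6.93%, 6.08% and 11.1%.

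**Figure D5:**
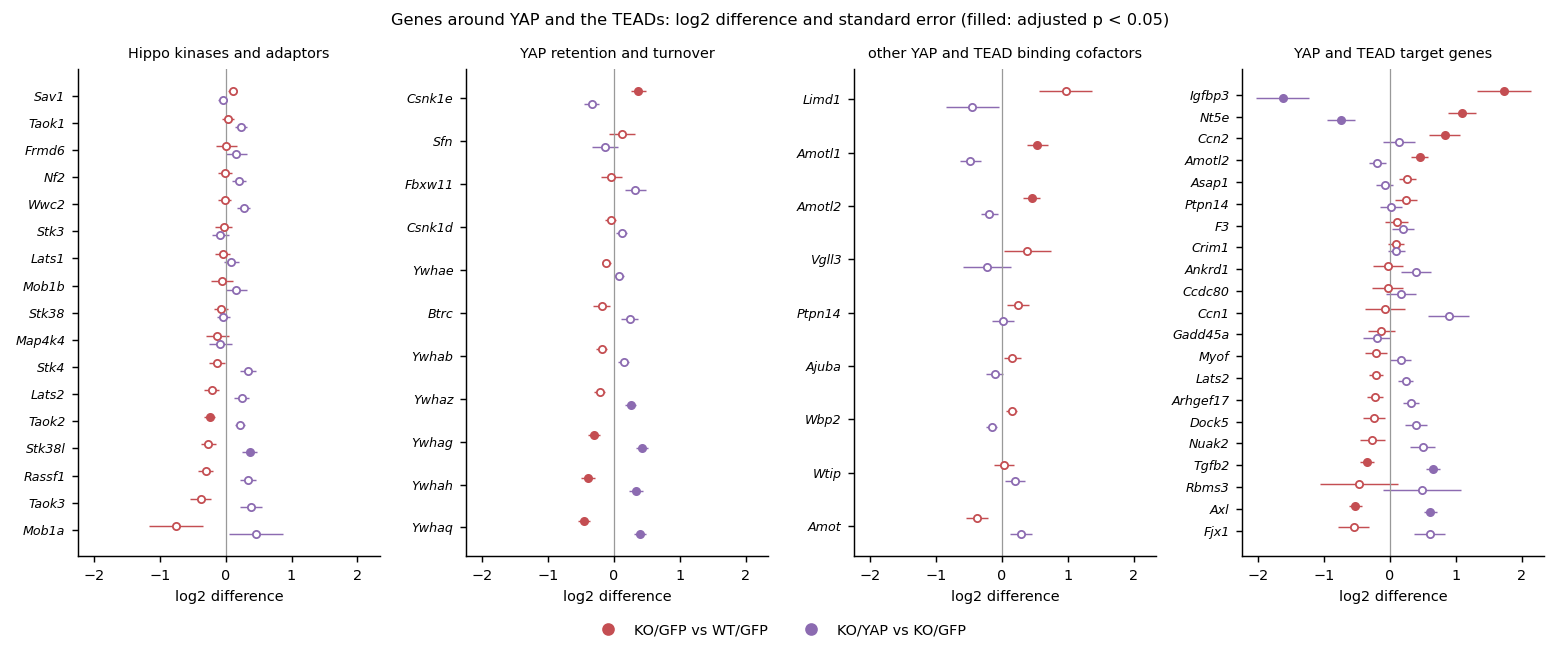
Log2 difference with its standard error (horizontal axis) for the tested genes of 4 lists (panels, one gene a row, ordered by the first comparison), in KO/GFP against WT/GFP and in KO/YAP against KO/GFP, which share the KO/GFP libraries. Filled points passed an adjusted p of 0.05 in limma, among them *Igfbp3* at 1.73 and -1.63 and *Axl* at -0.53 and 0.61.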

How the data were processed

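RNA was sequenced from 24 mouse hearts in 2 experiments. The authors used cutadapt 2.3 for trimming and HISAT2 2.1.0 for alignment to GRCm38, assembled transcripts with StringTie 1.3.4 and derived gene counts with its companion script, which estimates them from coverage. The deposited values are a normalized signal, CPM computed by the authors with edgeR 3.26.1. Columns sum to 942566 to 1134439, so the library sizes were scaled. At least 99.9% of values in each library were whole multiples of one count within 0.05, which gave the recovered counts. Genes over 1 CPM in at least 4 of 8 uninjected or 8 of 16 injected libraries were tested (15598 and 14597 genes) with limma 3.58.1 with a trend on log2(CPM + 1), 2-sided, with Benjamini-Hochberg adjustment. That scale understates fold changes of low genes. The 16 injected libraries shared one model. The design had named plain CPM. edgeR 4.0.16 and DESeq2 1.42.0 ran on the recovered counts. Other alternatives were the pseudocount (0.1), no filter, 2 scalings, no trend, a replicate block, a *Ddx3y* covariate, only the groups compared, and each library left out. Tests were tried on simulated data. No pair of libraries of a group agreed within sampling noise. Named genes are the 7 members, called genes of the 4 lists, at most 6 a list and comparison, the 3 genes most correlated with each member, *Xirp2*, and *Ddx3y* and *Xist* as markers of sex. *Ankrd1*, *Cd37* and the cell type markers *Myh6*, *Tnnt2*, *Kdr*, *Cdh5*, *Emcn*, *Aldh1a2*, *Krt19* and *Wt1* stand outside this rule and were named after their values were seen. Members and lists were chosen with earlier results of these data known.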

Additional observations from a re-analysis of the deposited data

Results flagged for a closer look

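The 7 genes in 6 groups give 42 sets of 4 values. In 4 of the sets 1 library lay farther from the rest than Dixon's test allows at 95%, where chance gives about 1 in 20, or 2.1. *Yap1* in uninjected KO replicate 2 was at 98.96 CPM, against 47.9 to 50.1 CPM in the other KO libraries. *Wwtr1* in WT/GFP replicate 4 was at 105.4 CPM, against 112 to 113 CPM in the other WT/GFP libraries. *Wwtr1* in KO/GFP replicate 3 was at 147.8 CPM, against 119 to 123 CPM. *Tead1* in uninjected KO replicate 1 was at 57.95 CPM, against 27.0 to 31.1 CPM.

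The effect of the vector on *Tead3* differed between the genotypes, with an interaction of -1.20 on the log2 scale (adjusted p = 0.0019, limma).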

How the results depend on the processing

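*Tead3* was called between KO/GFP and WT/GFP, between KO/YAP and KO/GFP and for the interaction under every alternative run. Of the 7 genes, the number called was 2 for the interaction with median-ratio scaling, edgeR, DESeq2 or the *Ddx3y* covariate, in place of 1. Over all 14597 tested genes these called 1112, 1033, 1545 and 1052, in place of 1104. In uninjected hearts the number of the 7 was 3 with plain CPM and 1 with edgeR or DESeq2, in place of 0. The shares of all tested genes were 10.2%, 6.13% and 12.5%, in place of 6.69%. For KO/YAP against KO/GFP 2 of the 7 were called with plain CPM, in place of 1, beside 18.8% of all tested genes, in place of 14.8%. For KO/YAP against WT/YAP DESeq2 called 1 of the 7, in place of 0, beside 0.459%, in place of 0.0411%. Leaving out 1 library gave 1 to 2 of the 7 for the interaction, 0 to 2 in uninjected hearts and 1 to 2 for KO/YAP against KO/GFP. The shares of all tested genes then ran from 4.32% to 10.1%, from 2.43% to 13.5% and from 10.1% to 17.1%. Small differences changed sign. For KO/GFP against WT/GFP, *Tead1* was -0.010 in edgeR and -0.0060 in DESeq2, *Tead2* 0.0013 and 0.00055, and *Yap1* -0.089 with plain CPM. *Yap1* with plain CPM was 0.0985 between KO/YAP and KO/GFP and 0.0096 between KO/YAP and WT/GFP. *Tead4* between WT/YAP and WT/GFP was -0.12 in edgeR, -0.12 in DESeq2 and -0.031 with the covariate. Leaving out 1 library, the values for KO/GFP against WT/GFP ran from -0.30 to 0.79 for *Tead1*, -0.14 to 0.084 for *Tead2*, -0.56 to 0.034 for *Tead4* and -0.0037 to 0.049 for *Yap1*. For WT/YAP against WT/GFP they ran from -1.31 to 0.027 for *Tead1* and -0.33 to 0.27 for *Tead4*. For KO/YAP against WT/GFP they ran from -0.12 to 0.53 for *Tead4* and -0.038 to 0.021 for *Yap1*, and *Yap1* ran from -0.059 to 0.00069 for KO/YAP against KO/GFP and from -0.0061 to 0.054 for the interaction. The cause was not tested. With the longest transcript in place of the exon union, 17 of 42 places in the order per kb moved.

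Samples with the same replicate number did not deviate together (correlations -0.17 to 0.14 in injected and -0.19 to 0.098 in uninjected hearts). A litter or batch that does not follow the replicate number would not show in these correlations. A replicate block left the number of called members at 1 for the 3 contrasts of *Tead3* and at 0 for the others, and cut the called share of all tested genes from 6.69% to 2.47% in uninjected hearts and from 7.56% to 4.84% for the interaction.

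Over all genes, uninjected calls were 1594 with plain CPM, 1951 in DESeq2 and 1927 with the *Ddx3y* covariate, in place of 1044, and 379 to 2098 with a library left out, each of the 8 moving the count by over 1.5 times. With plain CPM the split was 353 higher and 1241 lower, in place of 504 and 540. For KO/GFP against WT/GFP it was 590 and 1759, in place of 939 and 1054. For KO/YAP against KO/GFP it was 2156 and 591, in place of 1146 and 1010, and for the interaction 884 and 345, in place of 554 and 550. That scaling moved the median of all genes by -0.10, 0.12 and 0.11 in these 3. Fits to only the 2 groups called 930 genes for KO/GFP against WT/GFP, 1208 for KO/YAP against KO/GFP and 15 for KO/YAP against WT/YAP, in place of 1993, 2156 and 6. DESeq2 called 11, 24 and 67 for WT/YAP against WT/GFP, KO/YAP against WT/GFP and KO/YAP against WT/YAP, in place of 0, 3 and 6. KO/GFP against WT/GFP had 1263 and 1262 calls without KO/GFP replicate 1 or 4, and the interaction 631 to 727, in place of 1104, without WT/GFP replicate 2, KO/GFP replicate 1, WT/YAP replicate 2, 3 or 4, or KO/YAP replicate 1 or 2. WT/YAP against WT/GFP had 1 call without WT/GFP replicate 4 or WT/YAP replicate 3, and KO/YAP against WT/GFP 1 without KO/YAP replicate 1 or 3 and 2 without WT/GFP replicate 1 or KO/YAP replicate 4. KO/YAP against WT/YAP had 2 or 3 without WT/YAP replicate 2, 3 or 4 or KO/YAP replicate 1 or 2. *Tead4* had the fewest counts of the 7 genes, at 28 to 193 a library.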
